A study of Mus musculus with 28 samples.

Results

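ORR1 elements are LTR retrotransposons of the mouse that belong to the MaLR group, and they were read here integrant by integrant in embryonic stem cells depleted of the corepressor KAP1. An integrant was taken as ORR1 where its class was MaLR and every part of its name began with ORR1. By this rule 133999 of 3404964 TE integrants were ORR1, 33024 of the ORR1A subfamilies (ORR1A0 to ORR1A4) and 100975 of the older ones (ORR1B1, ORR1B2, ORR1C1, ORR1C2, ORR1D, ORR1D1, ORR1D2 and ORR1E). Reads over all 16 RNA libraries numbered at least 16 for 3782 of them, 1787 ORR1A and 1995 older, of 123880 such TE integrants in all. No read fell on 111901 ORR1 integrants, and on either side of the limit lay 157 integrants with exactly 15 reads and 144 with exactly 16.

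The cells were WT, DNMT TKO (without Dnmt1, Dnmt3a and Dnmt3b) and TET TKO (without Tet1, Tet2 and Tet3) mouse ES cells, all labelled J1 and 129S4/SvJae, grown in 2i and LIF. Each genotype received a pLKO.puro lentiviral vector that was empty (shEmpty) or carried a hairpin against Kap1 (shKap1), and after puromycin selection RNA was taken 5 days after transduction. The 6 groups held 3 libraries each for WT and DNMT TKO and 2 each for TET TKO, which the study's methods call independent experiments. According to the methods the mutant lines came from different laboratories, so that genotype and line cannot be told apart in any comparison between them. The knockdown comparisons ask which ORR1 integrants depend on KAP1, and the differences between genotypes ask whether that dependence is altered when 5mC or its oxidation is lost.

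ORR1 elements carry no gag, pol or env gene of their own, and depend on the proteins of other retroviruses, in all likelihood of the ERVL group to which MERVL belongs. Most copies survive as solitary LTRs, and a minority as an internal part (ORR1-int) between 2 LTRs. LTRs of the MaLR group act as promoters in oocytes and in the cleaving embryo. KAP1, the product of Trim28, is brought to TEs by KRAB zinc finger proteins and recruits the H3K9 methyltransferase SETDB1, whereas DNMTs methylate cytosine and TET enzymes oxidise the methyl mark to 5hmC.

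Trim28 fell on knockdown by 3.41 ± 0.16 (SE) on the log2 scale in WT, by 2.13 ± 0.15 in DNMT TKO and by 3.47 ± 0.20 in TET TKO. The fall in DNMT TKO was 1.28 ± 0.21 smaller than in WT (adjusted p = 0.000803, edgeR), so the depth of the knockdown moves with genotype beside every difference between DNMT TKO and WT. The fall in TET TKO differed from that in WT by -0.06 (adjusted p = 0.928). Libraries held 18108431 to 29373696 reads on genes and 27729 to 88318 on ORR1. Of 8 naive ES cell markers 7 were measured, and their summed RPKM ran from 1284 to 1509 in shEmpty and from 832.2 to 1081 in shKap1, lower in every shKap1 library. Summed markers of fibroblasts stayed at or under 4.558 RPKM, those of mesoderm at or under 7.194 and those of primitive endoderm at or under 3.645. For neural markers the range was 9.437 to 20.05, and for trophoblast markers 3.71 to 36.06. The largest part of these 2 sums came from 1 gene each, Nes (5.704 to 18.78 RPKM) and Krt8 (3.152 to 35.05). In every shKap1 library the sums of neural and primitive endoderm markers were higher, and that of mesoderm markers lower, than in the shEmpty libraries of the same genotype. At most 1 marker of any such list was at 0 in a library. The part of these shifts in the ORR1 results was not tested. TET TKO shEmpty replicate 2 stands apart from replicate 1 of its group (chi-square per degree of freedom of 45.56, against 1.677 between the TET TKO shKap1 libraries), and sums, the ratio and counts of calls in TET TKO are given without it as well. Single integrants, the overlap of calls between genotypes and the plots are given with it only. A fit that leaves out 1 TET TKO library holds a group of 1 library, which is assumed to vary like the other groups, so such p-values rest on the spread of the others. In WT and DNMT TKO replicate 1 differed from replicates 2 and 3 by 11.14 to 15.32, and these from each other by 1.814 to 5.97.

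The sequences show examples of younger and older members that are named below for their changes on knockdown. All are of mm9 and run 5′ to 3′ on the strand of the element. Capitals mark bases covered by AATAAA or ATTAAA on either strand, the usual polyadenylation signal and its commonest variant. The first pair are LTRs of ORR1A0, a subfamily whose response differed from WT in both mutants. Both integrants lost all or nearly all reads on knockdown in WT, where the sum of the subfamily did not change.
ORR1A0, chr7:114386385-114386684 (+): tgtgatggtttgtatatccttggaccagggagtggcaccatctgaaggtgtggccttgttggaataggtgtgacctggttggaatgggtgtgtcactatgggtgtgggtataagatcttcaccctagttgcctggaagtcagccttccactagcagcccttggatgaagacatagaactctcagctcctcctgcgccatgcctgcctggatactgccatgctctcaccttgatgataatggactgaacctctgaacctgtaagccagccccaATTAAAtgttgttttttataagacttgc
ORR1A0, chr5:82514738-82515037 (+): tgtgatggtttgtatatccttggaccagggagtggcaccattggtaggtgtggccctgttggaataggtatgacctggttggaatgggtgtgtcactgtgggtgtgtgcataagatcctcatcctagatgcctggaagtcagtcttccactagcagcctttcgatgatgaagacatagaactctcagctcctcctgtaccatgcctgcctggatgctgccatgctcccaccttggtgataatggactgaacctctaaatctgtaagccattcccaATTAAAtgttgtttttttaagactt
Older elements that were silent in every or nearly every shEmpty library and gained reads on knockdown follow, an ORR1B2 and the start of an ORR1C1.
ORR1B2, chr12:73745425-73745724 (+): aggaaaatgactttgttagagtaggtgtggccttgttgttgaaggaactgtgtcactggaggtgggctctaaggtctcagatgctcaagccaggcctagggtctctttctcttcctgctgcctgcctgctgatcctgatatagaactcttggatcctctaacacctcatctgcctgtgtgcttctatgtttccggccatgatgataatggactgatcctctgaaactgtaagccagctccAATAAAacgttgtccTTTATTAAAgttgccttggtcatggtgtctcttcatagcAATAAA
ORR1C1, chr2:27402827-27403126 (-): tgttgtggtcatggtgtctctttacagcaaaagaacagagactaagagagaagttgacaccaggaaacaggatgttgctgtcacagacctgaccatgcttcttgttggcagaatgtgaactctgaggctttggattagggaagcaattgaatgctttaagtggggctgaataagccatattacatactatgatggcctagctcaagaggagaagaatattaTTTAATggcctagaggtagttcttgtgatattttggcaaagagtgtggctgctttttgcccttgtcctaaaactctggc
The last pair are ORR1A3-int pieces of 87 bases that lie within MERVL, and they differ from each other at 2 bases.
ORR1A3-int, chr2:112941798-112941884 (+): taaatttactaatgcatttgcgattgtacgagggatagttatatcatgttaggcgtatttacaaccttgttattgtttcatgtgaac
ORR1A3-int, chr1:16887760-16887846 (+): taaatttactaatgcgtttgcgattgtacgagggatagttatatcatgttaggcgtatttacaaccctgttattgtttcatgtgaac

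The stretches of both ORR1A0 LTRs and of the ORR1C1 hold ATTAAA once, whereas the ORR1B2 stretch holds AATAAA as well. The subfamilies differed in these motifs. Among LTRs of 300 to 400 bp with a sequence, both strands searched, ATTAAA was present in 69.3% of 17695 ORR1A, 32.8% of 40714 older ORR1 and 27.8% of 167482 integrants of the LTR class. AATAAA was present in 10.7%, 34.5% and 44.2% of the same sets. ATTAAA was found in 87.0% of ORR1A0 LTRs and in 12.9% of ORR1E, and the search for it was chosen after the printed sequences had been seen. The 2 motifs can overlap, as they do in the ORR1B2 LTR. Of 3 motifs of early embryonic factors, GATTNNATC (the core bound by DUX) was in 0.503% of ORR1A and 1.96% of older ORR1, AGATAA (bound by factors of the GATA family) in 6.55% and 11.1%, and ATGCAAAT (the octamer of OCT4) in 0.379% and 1.1%. In both pooled sets each was rarer than over the LTR class, where the shares were 2.24%, 15.9% and 1.29%. None of 1205 ORR1A0 LTRs held GATTNNATC or ATGCAAAT. Some older subfamilies lay above the LTR class, with GATTNNATC in 3.25% of ORR1D2 and 3.06% of ORR1E. ATGCAAAT was in 3.09% of ORR1C2 and 1.54% of ORR1C1.

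ORR1A was transcribed more per length of DNA than older ORR1, at 51.52 to 62.87 against 18.96 to 23.32 reads-per-million (rpm, relative to gene reads) per Mb of annotated sequence in the 8 shEmpty libraries, leaving out the ORR1A2 integrant with an rRNA piece that is described below. The share of integrants that reached 16 reads was 16.6% for ORR1A0, 6.23% for ORR1A1, 4.09% for ORR1A2, 6.84% for ORR1A3, 3.62% for ORR1A4 and 1.31% for ORR1E. In rpm per Mb ORR1A0 stood at 124.7 to 195.4 in the shEmpty libraries. ORR1A1 stood at 43.08 to 63.91, ORR1A3 at 38.4 to 44.63 and ORR1A4 at 52.43 to 61.82. Among the older subfamilies ORR1D1 was at 12.84 to 15.85 and ORR1E at 14.44 to 17.57, ranges that overlap, and ORR1B1 was at 27.7 to 34.36. Levels did not follow the order of the names throughout, since ORR1A4 lay above ORR1A3 and ORR1D, with 47.09 to 55.07 over 730 integrants, above ORR1B1. ORR1A also kept more elements whole. An LTR, internal part and LTR were joined in 1179 ORR1A integrants against 928 older ones, and of these 365 and 62 reached 16 reads. The median integrant held 0.308 CpG per 100 bp in ORR1A and 0.508 in older ORR1.

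**Figure D1:**
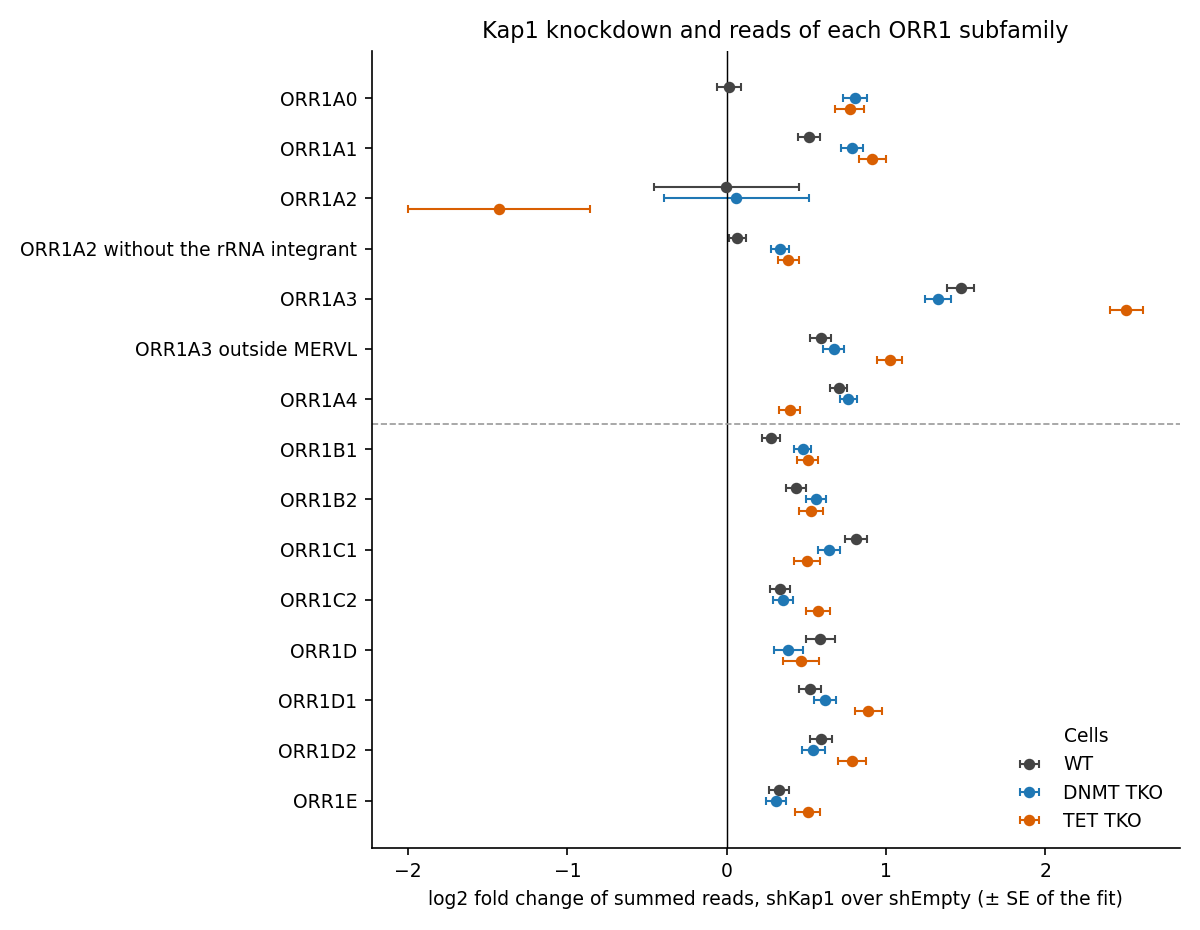
Log2 fold change of the summed reads of each ORR1 subfamily on knockdown (x axis, shKap1 over shEmpty, points with SE bars of the fit) in WT (grey), DNMT TKO (blue) and TET TKO (orange), with ORR1A2 also without its rRNA integrant, ORR1A3 also outside MERVL and a dashed line above the older subfamilies. ORR1A0 lies at 0.01 in WT and at 0.81 and 0.77 in the mutants, and ORR1A3 at 1.47, 1.33 and 2.51.

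Summed over all integrants, also those under 16 reads, older ORR1 rose on knockdown in each genotype. The 3 WT shEmpty libraries held 680.9, 639.1 and 670.6 rpm and the shKap1 libraries 858.4, 906.7 and 906.5. In DNMT TKO the values were 632.2, 634.2 and 644.4 against 932.3, 866.2 and 861.4, and in TET TKO 686 and 777.5 against 1116 and 1099. The groups did not overlap in any genotype. On the log2 scale the rise was 0.42 ± 0.05 in WT (adjusted p = 3.42e-07), 0.48 ± 0.05 in DNMT TKO (6.20e-08) and 0.60 ± 0.06 in TET TKO (4.86e-08), where it was 0.71 without TET TKO shEmpty replicate 2. Over 1099 TE families the median change was 0.45, 0.58 and 0.66 in the same order, so the older subfamilies moved about as far as the median family. Over the 1099 families the median difference of the knockdown effect from WT was 0.07 in DNMT TKO and 0.19 in TET TKO. For older ORR1 these differences were 0.05 (adjusted p = 0.673) and 0.17 (adjusted p = 0.144), and both use the same WT libraries. The TET TKO difference was 0.28 (adjusted p = 0.00872) without TET TKO shEmpty replicate 2, 0.083 (0.48) without replicate 1, and 0.27 (0.0468) without integrants on same-strand exons.

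The sum of ORR1A could not be read the same way, because 1 integrant held 15.8% of its reads. This is an ORR1A2 pair at chr14:105114800-105115455 (-), between genes, that overlaps a piece of large subunit rRNA and a KAP1 region. It had 1331, 1812 and 1922 reads in WT shEmpty and 1180, 1358 and 959 in WT shKap1, 1385, 1801 and 4978 against 1300, 1305 and 1767 in DNMT TKO, and 1630 and 44546 against 1428 and 1262 in TET TKO. The value of 44546 belongs to TET TKO shEmpty replicate 2, the library that stands apart. With this integrant, ORR1A changed by 0.43 ± 0.27 in WT (adjusted p = 0.214), 0.60 ± 0.27 in DNMT TKO (0.0829) and -0.03 ± 0.33 in TET TKO (0.947). Without it the changes were 0.48 ± 0.05 (9.17e-08), 0.73 ± 0.05 (2.30e-10) and 0.91 ± 0.06 (2.63e-10), an alternative chosen after seeing the data. ORR1A then rose from 758.2 ± 24.0 (SD, n = 3) to 1054 ± 45.0 rpm in WT, from 725.3 ± 21.3 to 1200 ± 80.4 in DNMT TKO and from 867.8 ± 2.70 to 1636 ± 41.9 (n = 2) in TET TKO. The effect exceeded that of WT by 0.25 ± 0.07 in DNMT TKO (adjusted p = 0.0145) and by 0.44 ± 0.07 in TET TKO (adjusted p = 0.000564). Without TET TKO shEmpty replicate 2 the TET TKO rise was 0.93 (adjusted p = 6.19e-08) and its difference from WT 0.44 (0.00273). With any 1 library left out the TET TKO difference ran from 0.40 to 0.46 and passed the test. That of DNMT TKO ran from 0.17 to 0.27 and did not pass without WT shEmpty replicate 1, any 1 of the WT shKap1 libraries, DNMT TKO shEmpty replicate 1 or 2, DNMT TKO shKap1 replicate 2 or either TET TKO shKap1 library, with adjusted p up to 0.133.

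Whether ORR1A responded more than older ORR1 was tested on the ratio of their reads within each library, where library size cancels. Over all integrants the log2 ratio changed by -0.11 on knockdown, averaged over genotypes (exact permutation test, two-sided, 2400 arrangements within genotypes, p = 0.958). The ratio itself was 1.35 and 3.27 in the TET TKO shEmpty libraries, the second being the library that stands apart. Without integrants that hold a piece of a non-coding RNA, an alternative chosen after seeing the data, the ratio ran from 1.1 to 1.18 in WT shEmpty and from 1.17 to 1.20 in WT shKap1. It ran from 1.13 to 1.16 and from 1.29 to 1.44 in DNMT TKO, and stood at 1.27 and 1.11 against 1.49 and 1.46 in TET TKO. The mean change was then 0.20 (exact permutation p = 0.00167), with 0.05 in WT, 0.25 in DNMT TKO and 0.31 in TET TKO. Without TET TKO shEmpty replicate 2 the mean was 0.17 (exact permutation p = 0.00167, 1200 arrangements) and the TET TKO change 0.22. Within 1 genotype the smallest exact p that 3 against 3 libraries allow is 0.1, and 2 against 2 allow 0.333. When ORR1A pieces inside MERVL were also left out, the mean change was 0.04 (exact permutation p = 0.348), and when integrants within 10 kb of MERVL were left out it was 0.03 (exact permutation p = 0.444). These means join changes of opposite sign. Without the pieces inside MERVL the change was -0.09 in WT, 0.17 in DNMT TKO and 0.04 in TET TKO, and without integrants within 10 kb it was -0.09, 0.15 and 0.04. The WT and DNMT TKO values each had the smallest exact p that 3 against 3 libraries allow.

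**Figure D2:**
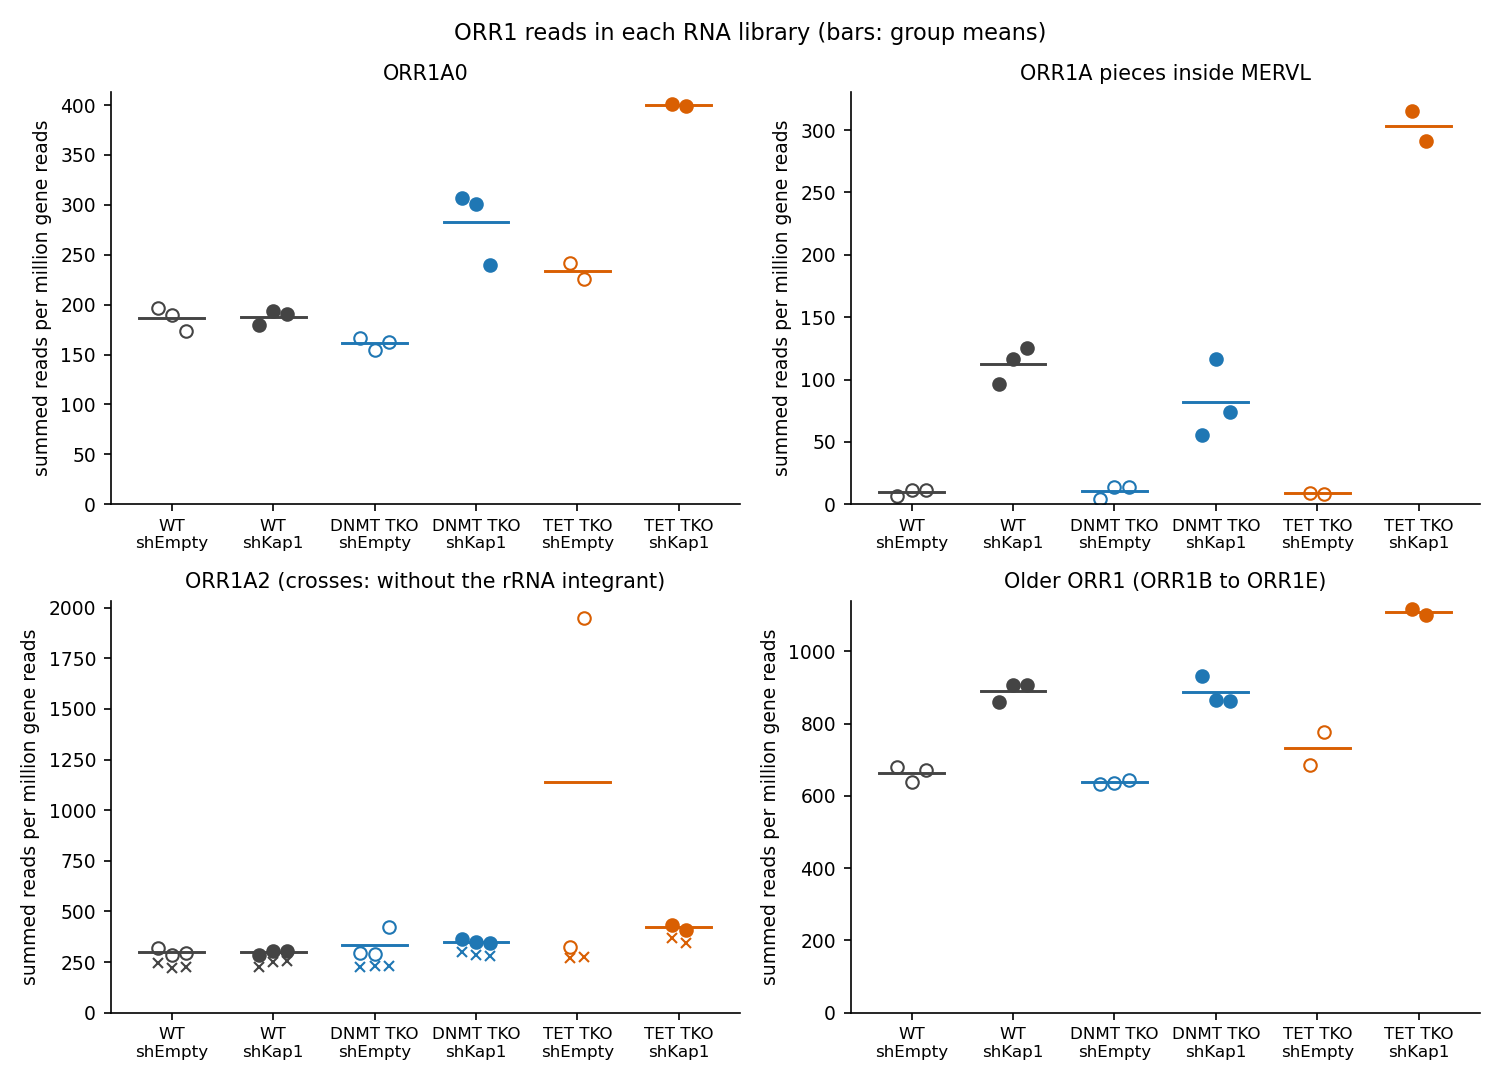
Summed reads per library (y axes, linear, in rpm) of ORR1A0, ORR1A pieces inside MERVL, ORR1A2 and older ORR1, by genotype and hairpin, with open points for shEmpty, filled points for shKap1, bars for group means, and crosses for ORR1A2 without its rRNA integrant. ORR1A pieces inside MERVL go from 8.599 and 8.706 to 291.5 and 315 in TET TKO, whereas ORR1A0 in WT stays between 173.7 and 196.2.

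The ORR1A pieces inside MERVL rose, as MERVL did. MERVL and its LTR, MT2_Mm, are transcribed in a burst at the 2-cell stage of the embryo. Of 5614 ORR1A3 integrants 790 overlapped an integrant that holds MERVL or MT2_Mm on the same strand, against 12 of all other ORR1A. Of 1451 single ORR1A3-int pieces 765 lay wholly within one. In 555 cases the piece was 87 bp long, and 337 of these shared 1 sequence. A read that covers such a piece is counted for the piece and for the MERVL integrant around it. The summed reads were 6.33, 11.13 and 11.46 rpm in WT shEmpty and 96.56, 116.6 and 124.9 in WT shKap1, 4.164, 13.84 and 13.72 against 55.48, 116.4 and 73.65 in DNMT TKO, and 8.706 and 8.599 against 315 and 291.5 in TET TKO. No shKap1 library came near a shEmpty library. The log2 rise was 3.53 ± 0.43 in WT, 2.93 ± 0.42 in DNMT TKO and 5.13 ± 0.56 in TET TKO (adjusted p = 3.20e-05, 0.000110 and 1.14e-05). It was 5.14 in TET TKO without shEmpty replicate 2. The TET TKO rise of these pieces exceeded that of WT by 1.60, which did not pass the test (adjusted p = 0.1375, edgeR). These values stand beside 3.46, 2.88 and 5.21 for elements that join MERVL and MT2_Mm. For MERVL without an LTR joined to it the rise was smaller, at 2.31, 1.76 and 3.7. For solitary MT2_Mm it was 2.51, 2.06 and 4.16, and for MTA_Mm, another MaLR LTR that is not part of MERVL, 0.48, 0.37 and 0.74.

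Genes of the 2-cell stage rose beside them. Of 29 listed genes 15 were tested, and 14 were called higher in WT, 13 in DNMT TKO and 15 in TET TKO, with none lower, where 10.8%, 10.1% and 8.05% of all genes tested were called higher and 6.54%, 2.41% and 4.46% lower. The counts were the same without TET TKO shEmpty replicate 2. Their median log2 changes were 3.41, 2.74 and 6.02. Genes entered the test with at least 16 reads over the 16 libraries. Some, such as BC061212 with 0 reads in every shEmpty library, could hardly be called lower. The list was chosen with earlier results of these data known, so these counts describe the genes that passed. Zscan4d, which acts in telomere maintenance of 2-cell-like cells, rose by 3.41, 2.31 and 6.19, and Pramef6 by 4.84, 6.10 and 7.68. In bulk RNA more cells of the 2-cell-like state and more RNA per such cell cannot be told apart.

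ORR1A3 held most of these pieces. Its sum rose by 1.47 ± 0.08, 1.33 ± 0.08 and 2.51 ± 0.10, and outside MERVL by 0.59 ± 0.07, 0.67 ± 0.07 and 1.02 ± 0.08 in WT, DNMT TKO and TET TKO. The TET TKO effect exceeded that of WT by 1.04 ± 0.13 with the pieces inside MERVL (adjusted p = 2.70e-05) and by 0.43 ± 0.10 without them (0.00797). Without TET TKO shEmpty replicate 2 these differences were 1.09 (adjusted p = 0.00034) and 0.48 (0.006). With any 1 library left out the first ran from 0.98 to 1.09 and passed the test, under 2-fold without WT shKap1 replicate 1 or TET TKO shKap1 replicate 1, and the other was 0.39 (0.0534) without TET TKO shKap1 replicate 1. The DNMT TKO effect on ORR1A3 differed from WT by -0.14 (adjusted p = 0.482), and by -0.32 (0.018) without DNMT TKO shKap1 replicate 2. The pieces at chr2:112941798-112941884 and chr1:16887760-16887846, printed above, were named for their rises in TET TKO. That on chromosome 2, opposite to Ryr3, had 2, 1 and 3 reads in WT shEmpty and 10, 20 and 15 in WT shKap1, 0, 3 and 5 against 11, 17 and 12 in DNMT TKO, and 0 and 0 against 62 and 42 in TET TKO. That on chromosome 1, between genes, had 1, 4 and 1 against 16, 23 and 13, 0, 4 and 7 against 13, 29 and 23, and 0 and 0 against 46 and 41. With 3 reads set as the floor of an empty group, the rises in TET TKO were at least 46.4-fold and at least 38.8-fold.

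ORR1A0, the youngest subfamily, behaved otherwise. Its sum did not change on knockdown in WT and rose in both mutants. The WT libraries held 196.2, 189.5 and 173.7 rpm with shEmpty and 179.6, 194 and 190.8 with shKap1, which overlap. In DNMT TKO the values were 166.5, 154.6 and 162.5 against 306.6, 300.4 and 240.1, and in TET TKO 242.2 and 225.7 against 400.8 and 398.7, without overlap. As means ± SD these were 186.5 ± 11.5 and 188.1 ± 7.57 in WT, 161.2 ± 6.06 and 282.4 ± 36.8 in DNMT TKO, and 234 ± 11.7 and 399.8 ± 1.45 in TET TKO. The log2 changes were 0.01 ± 0.08 (adjusted p = 0.903), 0.81 ± 0.08 (3.43e-08) and 0.77 ± 0.09 (8.44e-07). The mutant effect exceeded that of WT by 0.80 ± 0.11 in DNMT TKO (3.49e-05) and by 0.76 ± 0.12 in TET TKO (0.000317). With any 1 library left out these differences ran from 0.70 to 0.85 and from 0.72 to 0.81 and passed the test, the value without TET TKO shEmpty replicate 2 being 0.72 in TET TKO, and without the 5 integrants with most reads they were 1.12 and 0.96. Over all ORR1A0 integrants these differences did not reach 2-fold, and without those 5 that of DNMT TKO did. The DNMT TKO difference of ORR1A2 without its rRNA integrant was 0.27 (0.0289), and with 1 of the 16 libraries left out it passed where that was WT shEmpty replicate 2 or 3, but not for the other 14 (adjusted p up to 0.197).

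**Figure D3:**
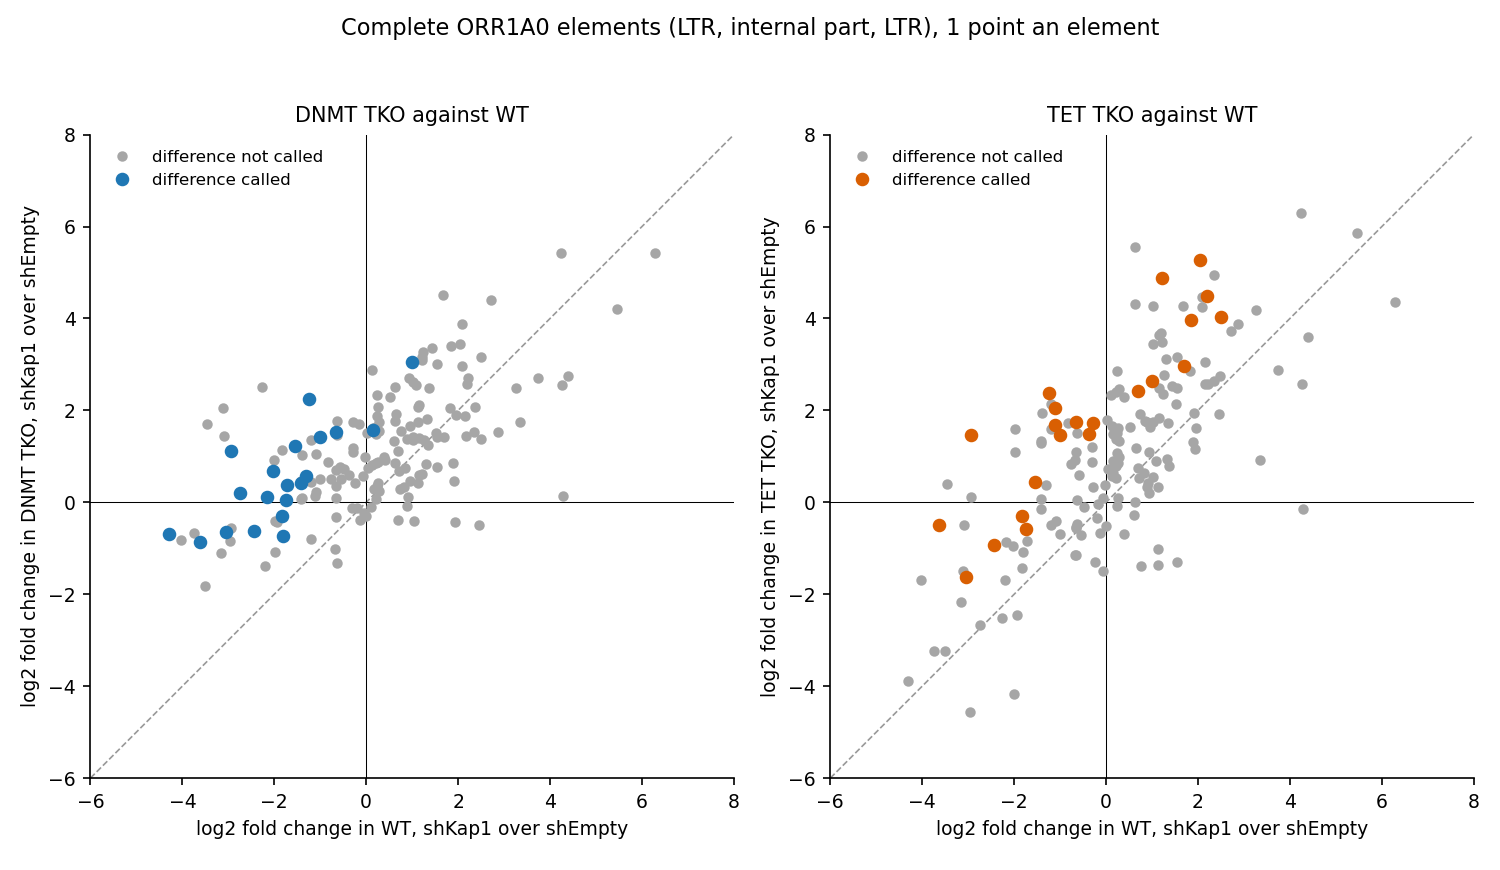
Log2 fold change on knockdown of each of 172 complete ORR1A0 elements in WT (x axis) against the same element in DNMT TKO (left, y axis) and TET TKO (right, y axis), with the dashed line of equal change. Most points lie above the line, and the elements whose difference was called (20 in DNMT TKO and 22 in TET TKO, coloured) all do.

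The difference was seen in complete elements and in the other ORR1A0 integrants, a division made after seeing the data. Of 230 complete ORR1A0 elements, 172 reached 16 reads. Their sum changed by -0.15 ± 0.09 in WT, 0.75 ± 0.09 in DNMT TKO and 0.65 ± 0.11 in TET TKO, so that the effects differed from WT by 0.90 (adjusted p = 4.09e-05) and 0.80 (0.000581). All other ORR1A0 integrants together rose by 0.45, 0.96 and 1.18, with differences of 0.52 (0.00813) and 0.74 (0.00134). The TET TKO differences were 0.76 (adjusted p = 0.00516) for complete elements and 0.70 (0.00771) for the others without TET TKO shEmpty replicate 2. The fitted change of an element was larger than in WT for 127 of 172 in DNMT TKO and for 131 in TET TKO. In WT as many complete elements were called lower as higher, 23 and 23, whereas 47 were higher and 1 lower in DNMT TKO, and 53 and 11 in TET TKO (44 and 12 without TET TKO shEmpty replicate 2). Over all TE integrants 12.1%, 15.0% and 14.7% were called higher and 2.05%, 0.944% and 0.971% lower in these genotypes. The 16-read limit admits an element through the libraries in which it is high, so these counts describe the elements that passed and are no support for the sum.

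Without knockdown ORR1A0 stood lower in DNMT TKO than in WT by 0.21 (adjusted p = 0.0422), and higher in TET TKO by 0.33 (0.00951). The first of these did not hold under other scalings, being -0.17 (adjusted p = 0.104) with RLE factors and 0.03 (0.828) with library sizes from TE reads. It also failed to pass with 13 of the 16 libraries left out in turn, the exceptions being WT shEmpty replicate 3 and DNMT TKO shKap1 replicates 1 and 3. Complete elements alone were lower by 0.27 (adjusted p = 0.0254), a value lost with 5 of the 16 libraries left out in turn, and all other ORR1A0 integrants gave -0.045 (0.757). Without the 5 integrants with most reads the value was -0.30 (0.0064) and passed with any 1 library left out, but with library sizes from TE reads it was -0.061 (0.593). The TET TKO value was 0.37 (adjusted p = 0.0251) without TET TKO shEmpty replicate 2, 0.28 (0.0906) without replicate 1 and 0.28 (0.0578) without WT shEmpty replicate 3. Library sizes from TE reads moved every DNMT TKO sum against WT by about 0.24, and the knockdown effects by -0.07 in WT, -0.19 in DNMT TKO and -0.23 in TET TKO. Under it the WT change of ORR1A0 was -0.06, and its differences from WT were 0.68 (0.000442) and 0.59 (0.00438). With the main scaling and no knockdown, TET TKO also stood above WT for ORR1A1 (0.365, adjusted p = 0.00276, edgeR), ORR1B2 (0.409, 0.000337) and ORR1C1 (0.602, 1.3e-05). ORR1D2 stood lower in DNMT TKO (-0.208, 0.032), but this did not hold under other scalings. It was -0.17 (adjusted p = 0.0945, edgeR) with RLE factors and 0.03 (0.697) with library sizes from TE reads. Without its integrant on an exon of Gm8909, ORR1C1 held 38.95 and 46.26 rpm in TET TKO shEmpty, and 40.48, 40.95 and 41.97 in WT shEmpty.

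Among the 13 subfamily sums, ORR1A3 was the one to pass 2-fold on knockdown, in each genotype. Outside MERVL its sum passed 2-fold in TET TKO alone, at 1.02. Of 1099 family sums 27.1%, 31.8% and 36.3% were called higher in WT, DNMT TKO and TET TKO by that limit, and 0.910%, 0.182% and 0.546% lower. For the DNMT TKO difference 5.10% were called higher and 2.64% lower, with no ORR1 subfamily, and for that of TET TKO 4.73% and 1.55%, with ORR1A3. Without knockdown the shares were 6.28% and 5.91% in DNMT TKO, again with no ORR1 subfamily, and 4.91% and 2.27% in TET TKO, with ORR1A2, whose sum holds the rRNA integrant and was higher by 1.92, but by 0.12 (adjusted p = 0.734) without TET TKO shEmpty replicate 2. ORR1A0 in WT, and ORR1A2 with its rRNA integrant in each genotype, did not pass the test, and all other subfamily sums rose in the 3 genotypes. ORR1A1 rose by 0.52, 0.79 and 0.92 in WT, DNMT TKO and TET TKO, ORR1A4 by 0.70, 0.76 and 0.40, and ORR1C1 by 0.81, 0.64 and 0.50. The sums of ORR1A4 and ORR1C1 each changed with a single integrant left out. Without the ORR1A4 at chr13:74689250-74690739, which is described below, ORR1A4 rose by 0.48, 0.30 and 0.46. Without an ORR1C1 on an exon of Gm8909 that was read in TET TKO alone apart from 1 read, also described below, the TET TKO rise of ORR1C1 was 0.86. ORR1E, the oldest, rose by 0.33, 0.31 and 0.51. The TET TKO rises without TET TKO shEmpty replicate 2 were 0.89 for ORR1A1, 0.46 for ORR1A4, and 0.62 for both ORR1C1 and ORR1E. ORR1A2 without its rRNA integrant gave 0.07 in WT (adjusted p = 0.326) and rose by 0.33 and 0.39 in the mutants. The TET TKO effect differed from WT for ORR1A1 (0.40, adjusted p = 0.0238), ORR1D1 (0.37, 0.0276) and, in the other direction, ORR1A4 (-0.31, 0.0201), and for ORR1A2 without its rRNA integrant (0.32, 0.0193), all under 2-fold. Over the 1099 families the median difference from WT was 0.19 in TET TKO and 0.07 in DNMT TKO. The ORR1A4 difference rested on the chromosome 13 integrant, being -0.02 (adjusted p = 0.92) without it and 0.10 (0.485) without the 5 ORR1A4 integrants with most reads. Without the integrant with most reads the differences were 0.40 for ORR1A1 (0.0252), 0.44 for ORR1D1 (0.0109) and 1.16 for ORR1A3 (3.46e-05). That of ORR1A1 in DNMT TKO then came to pass, at 0.33 (0.0413) beside 0.27 (0.0912) over all its integrants, and that of ORR1B1 in TET TKO at 0.27 (0.0376) beside 0.23 (0.0873). With library sizes from TE reads ORR1A1 (0.23, adjusted p = 0.265) and ORR1D1 (0.22, 0.0846) no longer passed the adjusted p, ORR1A3 (0.88, 0.00108) passed it under 2-fold and ORR1A4 (-0.47, 0.00078) passed it, though without the chromosome 13 integrant it was -0.18 (0.176). ORR1C1, at -0.31 (0.0645) in TET TKO and -0.17 (0.292) in DNMT TKO, came to pass with -0.46 (0.00368) and -0.29 (0.0314). Without the integrant on the exon of Gm8909 the TET TKO difference of ORR1C1 was 0.049 (adjusted p = 0.841), and -0.10 (0.528) with library sizes from TE reads, though without its integrant with most reads instead it was -0.40 (0.0155). ORR1A2 without its rRNA integrant was not recomputed under that scaling. These smaller differences also turned on single libraries. ORR1A1 did not pass without WT shEmpty replicate 2, WT shKap1 replicate 1, TET TKO shEmpty replicate 2 or either TET TKO shKap1 library. ORR1A4 did not pass without WT shEmpty replicate 2, TET TKO shEmpty replicate 2 or either TET TKO shKap1 library. ORR1D1 did not pass without WT shEmpty replicate 1 or 3, any 1 of the WT shKap1 libraries, TET TKO shEmpty replicate 1 or either TET TKO shKap1 library. ORR1A2 without its rRNA integrant did not pass without replicate 1 of WT shEmpty, WT shKap1, TET TKO shEmpty or TET TKO shKap1. Without TET TKO shEmpty replicate 2 the values were 0.36 for ORR1A1 (adjusted p = 0.0703), -0.26 for ORR1A4 (0.0633) and 0.53 for ORR1D1 (0.000677). Without it ORR1B1 (0.32, 0.0157) and ORR1D2 (0.36, 0.0207) passed as well, and without replicate 1, or WT shKap1 replicate 1, ORR1C1 did (-0.41, 0.0154, and -0.36, 0.043). Leaving out libraries in these sums was chosen after seeing the data, and no subfamily rise on knockdown within a genotype was lost by it. More than 10 kb from MERVL and without the rRNA integrant, ORR1A rose by 0.25, 0.58 and 0.45 and older ORR1 by 0.34, 0.43 and 0.41. In that set the DNMT TKO effect on ORR1A exceeded that of WT by 0.33 (adjusted p = 0.00228), the TET TKO effect by 0.20 (0.0925; 0.0356 without DNMT TKO shKap1 replicate 1), and the differences for older ORR1 were 0.09 (0.495) and 0.07 (0.653). The TET TKO differences there were 0.21 (adjusted p = 0.119) for ORR1A and 0.17 (0.119) for older ORR1 without TET TKO shEmpty replicate 2.

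Integrant by integrant, a call stands for a 2-fold or larger change with an adjusted p under 0.05 in edgeR. In WT 408 of 1787 ORR1A (22.8%) were called higher and 312 of 1995 older ORR1 (15.6%), where 12.1% of all TE integrants tested were. In DNMT TKO the counts were 417 (23.3%) and 281 (14.1%) against 15.0%, and in TET TKO 530 (29.7%) and 330 (16.5%) against 14.7%. Older ORR1 were thus close to the share over all TEs. Falls were called for 97 ORR1A (5.43%) and 41 older ORR1 (2.06%) in WT, where the share over all TEs was 2.05%, for 38 and 20 in DNMT TKO (0.944% over all), and for 70 and 18 in TET TKO (0.971% over all). Without TET TKO shEmpty replicate 2 the TET TKO counts were 429 and 257 higher, with 11.2% over all, and 56 and 9 lower. The 70 ORR1A falls became 42 without TET TKO shEmpty replicate 1 or shKap1 replicate 1 and 46 without shKap1 replicate 2, and the 18 older ones 7 without shKap1 replicate 1. The 20 older falls in DNMT TKO became 12 without DNMT TKO shEmpty replicate 3. Of 699 ORR1A called higher in any genotype, 228 (32.6%) were called in all 3, and of 529 older ORR1, 131 (24.8%), where 7967 of 28540 TE integrants (27.9%) were. Of 141 ORR1A called lower in any genotype, 14 (9.93%) were called in all 3, and of 65 older ORR1, 1 (1.54%), where 184 of 3983 TE integrants (4.62%) were. Among ORR1A called higher, the share called in all 3 was 118 of 272 (43.4%) for ORR1A3, which holds most pieces inside MERVL. For ORR1A0 it was 28 of 117 (23.9%). No test was made of these shares.

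**Figure D4:**
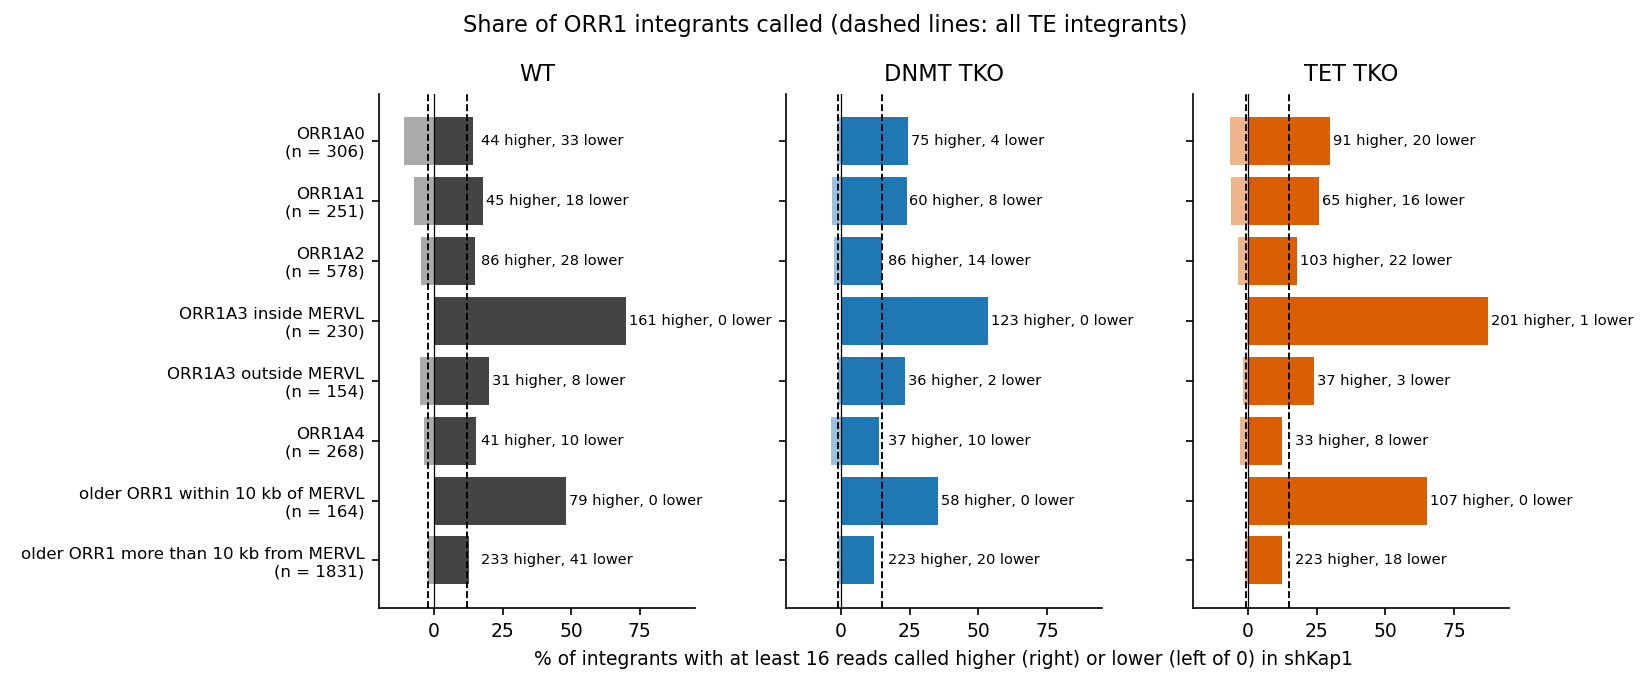
Percent of integrants with at least 16 reads called higher (to the right of 0) or lower (to the left, paler) on knockdown (x axis) in WT, DNMT TKO and TET TKO, for the ORR1A subfamilies, ORR1A3 being split by MERVL, and for older ORR1 near and far from MERVL, with dashed lines at the shares over all TE integrants. Of 230 ORR1A3 inside MERVL 161, 123 and 201 were higher, and of 1831 older ORR1 more than 10 kb from MERVL 233, 223 and 223.

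Calls were also counted by position beside MERVL. Of 233 tested ORR1A inside MERVL, 230 of them ORR1A3, 163 were called higher in WT, 125 in DNMT TKO and 204 in TET TKO, and 0, 0 and 1 lower. Outside but within 10 kb, 53, 45 and 68 of 113 ORR1A were higher. Of 164 older ORR1 within 10 kb, 8 of them inside MERVL, 79, 58 and 107 were higher. More than 10 kb away, 192, 247 and 258 of 1441 ORR1A were called higher and 97, 38 and 68 lower. For 1831 older ORR1 at that distance the counts were 233, 223 and 223 higher, and 41, 20 and 18 lower. The shares called higher were thus 13.3%, 17.1% and 17.9% for ORR1A and 12.7%, 12.2% and 12.2% for older ORR1, near the 12.1%, 15.0% and 14.7% over all TE integrants. The shares called lower were 6.73%, 2.64% and 4.72% for ORR1A and 2.24%, 1.09% and 0.983% for older ORR1, where 2.05%, 0.944% and 0.971% were over all. The counts called higher in TET TKO without its shEmpty replicate 2 were 187 inside MERVL, 56 outside but within 10 kb and 186 farther away for ORR1A, and 91 and 166 for older ORR1, and the falls beyond 10 kb were 55 and 9. All ORR1A falls called in WT and DNMT TKO, and 68 of 70 in TET TKO, lay more than 10 kb from MERVL, as did 1441 of the 1787 tested ORR1A. ORR1A inside MERVL had few reads before knockdown and could hardly be called lower, so the place of the falls is no result about MERVL. Over all ORR1A inside MERVL, the reads were 114, 313 and 324 in WT shEmpty and 1842, 2692 and 2343 in WT shKap1. The read limit thus admitted these integrants mainly through their shKap1 reads. Their high shares called higher describe the integrants that passed and are no support for the sum. Reads on these pieces are also counted for MERVL.

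By place in genes, 61.0% of tested ORR1A lay between genes and 23.7% in introns of the same strand, and no difference between these places was tested. Among 1090 between genes, 295 were higher in WT, 294 in DNMT TKO and 380 in TET TKO, and among 424 in same-strand introns 57, 63 and 74 (13.4%, 14.9% and 17.5%), near the 12.1%, 15.0% and 14.7% over all TE integrants. For older ORR1 the counts were 201, 182 and 217 of 992 between genes and 55, 44 and 49 of 656 in same-strand introns. Of the 80 ORR1A on a same-strand exon 5, 6 and 5 were higher and 7, 4 and 9 lower, where 2.05%, 0.944% and 0.971% of all TE integrants were lower. In TET TKO without its shEmpty replicate 2 the counts were 309 between genes and 62 in introns for ORR1A, 167 and 38 for older ORR1, and 4 higher and 6 lower on exons. Whether reads on exons and introns come from the host transcript or from the LTR cannot be told apart in these counts.

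Among single integrants the rises in WT were led by older and younger members alike. A complete ORR1C1 element at chr2:27401713-27403126 (-), between genes and overlapping a KAP1 region and an H3K9me3 region lost without KAP1, had 0 reads in each WT shEmpty library and 140, 188 and 174 in WT shKap1. It had 2, 1 and 0 against 114, 119 and 169 in DNMT TKO, and 0 and 0 against 181 and 165 in TET TKO. It thus had no or few reads in any genotype until knockdown, with rises of at least 204-fold in WT and at least 154-fold in TET TKO, and a ratio of 145 (95% counting interval 49.2 to 705) in DNMT TKO. A shorter ORR1C1 at chr2:27399677-27399831 (-), on the same strand nearby, went from 0, 1 and 0 to 36, 61 and 31 reads in WT.

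An ORR1D2 at chr1:192964365-192965869 (-), in an H3K9me3 region lost without KAP1, went from 0 reads in each WT and DNMT TKO shEmpty library to 31, 28 and 19 and to 51, 20 and 20. In TET TKO it went from 0 and 1 to 22 and 27. An ORR1A1 at chr11:23141822-23142799 (-), KAP1-bound and within 10 kb of MERVL, had no reads in WT shEmpty and 16, 27 and 31 in WT shKap1. In DNMT TKO it went from 0, 0 and 0 to 133, 52 and 90, and in TET TKO from 0 and 1 to 23 and 29. The ORR1B2 printed above, chr12:73745425-73747081 (+), had no reads in any shEmpty library. On knockdown it reached 7, 16 and 11 reads in WT, 172, 115 and 139 in DNMT TKO and 24 and 20 in TET TKO, rises of at least 13.8-fold, 153-fold and 19.6-fold. Its difference between genotypes was not called, and with no reads in any shEmpty group the fit gives no usable error for it.

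Others among the leading rises were of ORR1A. An ORR1A2 at chr3:145640665-145640992 (-), KAP1-bound, went from 1, 1 and 0 to 24, 39 and 31 reads in WT, from 0, 0 and 0 to 27, 21 and 51 in DNMT TKO and from 4 and 4 to 22 and 20 in TET TKO. An ORR1A2 with internal part at chr7:51431267-51432355 (+) went from 1, 3 and 1 to 31, 59 and 51, from 1, 0 and 0 to 81, 66 and 71, and from 4 and 2 to 50 and 45. Both lay between genes and did not overlap between hairpins in any genotype. An ORR1A0 with internal part at chr12:24364926-24366235 (-) was near silent in WT under either hairpin (0, 2 and 0 against 3, 4 and 3). In DNMT TKO it went from 0, 1 and 9 to 124, 73 and 74, and in TET TKO from 0 and 0 to 142 and 28, an at least 75.9-fold rise. The difference from WT was not called (adjusted p = 0.85 and 0.56).

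Among the falls was an ORR1A0 at a transcript start. This solitary LTR at chr7:114386385-114386730 (+), printed above, is a non-coding exon of the gene Gm15514 and holds its transcript start. It had 12, 4 and 12 reads in WT shEmpty and none in WT shKap1, an at least 7.65-fold fall. In DNMT TKO 15, 24 and 23 reads became 22, 21 and 21, and in TET TKO 22 and 16 became 6 and 11. Reads on the LTR also count for Gm15514, of which it is an exon, so the values of the gene are not independent of it. Gm15514 had 69, 115 and 104 reads against 12, 10 and 14 in WT, and log2 changes of -2.69 ± 0.24 (adjusted p = 5.24e-08), -0.04 ± 0.17 (0.90) and -0.96 ± 0.22 (0.00222). The complete element at chr5:82514738-82517122 (+), also printed, went from 21, 22 and 11 to 1, 0 and 1 reads in WT and from 77 and 66 to 3 and 4 in TET TKO. In DNMT TKO it had 7, 7 and 11 against 9, 4 and 1, which overlap. A complete ORR1A2 at chr1:166447996-166450156 (+) fell in WT from 46, 48 and 51 to 3, 5 and 3 and in TET TKO from 33 and 21 to 2 and 2, but not by a call in DNMT TKO (26, 49 and 56 against 32, 19 and 35). For this ORR1A2 the DNMT TKO effect exceeded that of WT by 2.95 ± 0.50 (adjusted p = 1.79e-06), whereas the TET TKO difference was 0.17 ± 1.05 (1.00).

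A few members fell in every genotype. An ORR1A3-int at chr2:179980219-179981167 (-), between genes, went from 10, 25 and 17 to 1, 2 and 1 reads in WT, from 28, 38 and 36 to 2, 9 and 4 in DNMT TKO and from 26 and 23 to 4 and 1 in TET TKO. A complete ORR1A2 at chr15:88538805-88541206 (+), opposite to Brd1, changed by -1.31 ± 0.15, -0.87 ± 0.15 and -1.15 ± 0.19, from 682, 785 and 762 to 181, 312 and 269 reads in WT. Brd1, a subunit of histone acetyltransferase complexes, changed by -0.45, -0.26 and -0.46. An ORR1A4 in a same-strand intron of Ccdc114, chr7:53182223-53183485 (+), was called lower in DNMT TKO, from 87, 126 and 137 to 15, 44 and 41 reads.

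Among the integrants with most reads was the ORR1A4 with internal part at chr13:74689250-74690739 (-). It rose from 277, 425 and 412 to 918, 1517 and 1290 reads in WT and from 199, 301 and 300 to 2326, 1858 and 2340 in DNMT TKO. In TET TKO it had 452 and 408 against 265 and 233, a log2 change of -0.37 ± 0.17 (adjusted p = 0.141) beside 2.02 ± 0.14 and 3.15 ± 0.15. Its effect differed from WT by 1.14 ± 0.19 in DNMT TKO (1.57e-06) and by -2.38 ± 0.22 in TET TKO (3.67e-23). A complete ORR1A0 at chr2:177771067-177773533 (+) changed by 0.72 ± 0.14, 0.68 ± 0.14 and 0.52 ± 0.17, all under 2-fold. The ORR1E at chr9:18118190-18118486 (+) lies in an untranslated exon of Chordc1, so that its reads also count for that gene, and changed by 0.54, 0.01 and 0.29 beside 0.56, -0.03 and 0.33 for Chordc1.

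The knockdown effect itself was called different from WT for few integrants. In DNMT TKO 43 ORR1A and 14 older ORR1 were called higher and 12 and 9 lower, where 1.33% and 0.473% of all TE integrants were. In either direction 78 ORR1 integrants were called, where 1.80% of all were. The higher calls made up 2.41% of ORR1A and 0.702% of older ORR1. In TET TKO 44 ORR1A (2.46%) and 6 older ORR1 (0.301%) were higher and 8 and 4 lower, with 0.831% and 0.242% over all, or 62 in either direction with 1.07% over all. The higher calls in TET TKO numbered 24 ORR1A and 1 older ORR1 without TET TKO shEmpty replicate 2, 27 and 0 without replicate 1, and 29 and 2 without WT shEmpty replicate 3. The older ORR1 count was also 2 without WT shEmpty replicate 2 and 3 without TET TKO shKap1 replicate 1. In DNMT TKO the 14 older ORR1 became 9 without WT shEmpty replicate 2 or DNMT TKO shEmpty replicate 1, 8 without WT shKap1 replicate 3 and 7 without DNMT TKO shEmpty replicate 2. Of the lower calls, the 12 ORR1A in DNMT TKO became 7 without WT shEmpty replicate 2 and the 9 older ORR1 became 5 without DNMT TKO shEmpty replicate 2, and the 8 ORR1A in TET TKO became 5 without WT shKap1 replicate 2 or TET TKO shKap1 replicate 2. The count of older ORR1 also turned on the tool. With limma-voom 40 were higher in DNMT TKO (2.005%, 1.92% over all) and 31 in TET TKO (1.55%, 1.14% over all), and with DESeq2 6 and 0, whereas ORR1A had 55 and 52 with limma-voom and 26 and 23 with DESeq2. ORR1A0 held 23 of the 43 and 26 of the 44, and 14 of the 24 without TET TKO shEmpty replicate 2. An ORR1A1 at chr10:78980864-78981103 (+) was silent in WT shEmpty (0, 0 and 0) and rose to 45, 21 and 26, but had 14, 6 and 9 against 41, 28 and 36 reads in DNMT TKO and 25 and 14 against 82 and 69 in TET TKO. The mutants thus differed from WT before the knockdown. An ORR1D2 at chr8:82848084-82848352 (-) had the same form, with 0, 2 and 0 against 14, 31 and 21 in WT, 9, 24 and 28 against 104, 96 and 154 in DNMT TKO, and 23 and 22 against 66 and 49 in TET TKO. A complete ORR1A1 opposite to Haus8, chr8:73788523-73790986 (+), went the other way in WT, from 18, 39 and 22 to 9, 10 and 0 reads, and in DNMT TKO from 1, 2 and 2 to 9, 6 and 7. An ORR1A1-int near MERVL, chr7:11613314-11614027 (+), went from 1, 4 and 4 to 41, 44 and 51 in WT, from 1, 4 and 5 to 6, 18 and 21 in DNMT TKO and from 0 and 0 to 100 and 76 in TET TKO. An ORR1A3-int inside MERVL, chr5:152487945-152488031 (+), went from 0, 1 and 1 to 18, 27 and 15 in WT, from 1, 3 and 3 to 3, 12 and 3 in DNMT TKO and from 4 and 1 to 66 and 51 in TET TKO.

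Without knockdown, DNMT TKO had 117 ORR1A and 72 older ORR1 called higher than WT and 95 and 107 lower, where 3.48% and 6.45% of all TE integrants were, or 391 in either direction with 9.93% over all. Higher calls made up 48.3% of the ORR1 calls, and 63.2% with library sizes from TE reads. In TET TKO 81 and 51 were higher and 34 and 53 lower, where 1.74% and 2.33% of all TEs were, or 219 in either direction with 4.08% over all. Without WT shEmpty replicate 3 the 72 older ORR1 higher in DNMT TKO became 47 and the 81 ORR1A higher in TET TKO became 53, and without TET TKO shEmpty replicate 1 the latter were 50. The 34 ORR1A and 53 older ORR1 lower in TET TKO became 19 and 28 without TET TKO shEmpty replicate 1 and 19 and 32 without replicate 2, and the 107 older ORR1 lower in DNMT TKO became 68 without DNMT TKO shEmpty replicate 2. Without TET TKO shEmpty replicate 2 the higher calls in TET TKO were 59 and 36. Those named for these differences were close to all or none. Others were graded, such as the ORR1A4 in an intron of Ccdc114, with 25, 46 and 60 reads in WT shEmpty against 87, 126 and 137 in DNMT TKO shEmpty. An ORR1B1 at chr12:21676961-21677041 (-) had 52, 55 and 62 reads with shEmpty and 50, 28 and 62 with shKap1 in DNMT TKO, and none in the 10 other libraries. An ORR1C2 at chr12:18541332-18541400 (+) had 0 reads in the 6 DNMT TKO libraries and 24 to 53 in each of the others. An ORR1C1 in an untranslated exon of Gm8909, which another annotated gene overlaps, chr17:36300145-36301526 (-), had 549 and 543 reads in TET TKO shEmpty and 242 and 214 in TET TKO shKap1, and at most 1 in any other library. ORR1B1-int pieces on chromosome 13 did likewise. That at chr13:66680788-66680962 (+) had 59 and 34 reads in TET TKO shEmpty and 66 and 53 in TET TKO shKap1, and 1 read in all WT and DNMT TKO libraries together. That at chr13:66377663-66379768 (-) had 0 and 1 in TET TKO shEmpty and 45 to 90 in WT and DNMT TKO. A complete ORR1A0 at chr11:92640861-92643309 (-) had 58, 69 and 65 reads in WT shEmpty and 4, 8 and 2 in WT shKap1, 95 and 70 against 11 and 2 in TET TKO, and 1 read in all 6 DNMT TKO libraries together.

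ORR1 was seldom a place of KAP1 binding in the deposited regions. A KAP1 region overlapped 860 of 133999 integrants, 0.642% (95% exact binomial interval 0.60 to 0.686), with 208 of ORR1A (0.630%) and 652 of older ORR1 (0.646%). Among solitary LTRs of 300 to 400 bp the share was 0.319% (0.241 to 0.412) of 17899 ORR1A and 0.420% (0.361 to 0.486) of 42852 older ORR1. Over the LTR class it was 1.42%, and for IAPLTR1_Mm, the LTR of the IAP elements that KAP1 is known to bind, 51 of 54. H3K9me3 regions overlapped 1.25% of ORR1A and 0.846% of older ORR1. Of 32 tested ORR1A with a KAP1 region 9 were called higher in WT, 8 in DNMT TKO and 6 in TET TKO. Of 71 with an H3K9me3 region 22, 24 and 26 were, and of 1699 with neither 381, 389 and 503. As shares these were 28.1%, 25% and 18.8% with a KAP1 region, 31.0%, 33.8% and 36.6% with an H3K9me3 region and 22.4%, 22.9% and 29.6% with neither, where 12.1%, 15.0% and 14.7% of all TE integrants were called higher. Leaving out TET TKO shEmpty replicate 2 gave TET TKO counts of 5, 19 and 409. No difference between these sets was tested, and 1699 of the 1787 tested ORR1A lay outside both. Most of the 233 tested ORR1A inside MERVL, whose high shares called higher are given above, lay in the set with neither. The share of that set is therefore not free of MERVL.

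At the KAP1 regions that ORR1A overlaps, 5hmC over input changed on knockdown in WT by a median of 0.59 on the log2 scale over 185 regions. For older ORR1 the median was 0.59 over 580 regions, and over all 25992 KAP1 regions with enough reads it was 0.64. There was 1 library per condition, so no difference was tested. These values scale each library to its reads over all sets of regions, and much of their size depends on that choice. Scaling to H3K4me3 regions instead gave 0.20, 0.20 and 0.26. The changes of single regions below use the first scaling, whereas their reads are printed unscaled. The region of the ORR1C1 element on chromosome 2 had 22 reads of 5hmC over 13 of input with shEmpty and 27 over 15 with shKap1, a change of 0.43. A complete KAP1-bound ORR1A0 at chr6:3085452-3087917 (-) rose in RNA by 1.69 ± 0.24, 1.43 ± 0.25 and 2.96 ± 0.27, from 26, 26 and 33 to 69, 69 and 88 reads in WT and from 50 and 42 to 260 and 274 in TET TKO. Its 5hmC reads were 60 over 42 of input and 43 over 46, a change of -0.27. The region of the ORR1A2 pair with the rRNA piece gave -0.25, from 43 over 81 and 46 over 130 reads.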

How the data were processed

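RNA was read with a stranded poly(A) kit in 16 libraries. The authors aligned reads to mm9 (HISAT2 2.0.1 and other tools are named in the submitters' processing notes), kept unique alignments, and deposited read counts per gene (featureCounts 1.5.1) and per TE integrant (bedtools 2.25, same strand) on a RepeatMasker track in which pieces of 1 element were merged. Such counts leave out reads that map to several copies, so near-identical members are undercounted. The authors also deposited counts of hMeDIP reads over regions, and KAP1 regions with a MACS score and H3K9me3 regions (SICER 1.1), made from ES cell ChIP-seq.

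Integrants with at least 16 reads over 16 libraries were fitted with the quasi-likelihood test of edgeR 4.0.16 in R 4.3.3, with 6 groups and 7 contrasts, library sizes and TMM factors from gene counts, and Benjamini-Hochberg adjustment over all 123880 TE integrants. Calls needed an adjusted p below 0.05 and 2-fold. Sums over families were fitted likewise over 1099 families. Levels in rpm are relative to gene reads, scaled by TMM. DESeq2 1.42.0 and limma-voom 3.58.1 served as alternatives. Scripts were tested on simulated data. 5hmC change is the log2 ratio of 5hmC to input reads, shKap1 over shEmpty, with a pseudocount of 1 and at least 10 input reads. Each hMeDIP library was scaled to its reads summed over all sets of regions counted. hMeDIP replicate 2 was left out, because the labels and file names disagree on which library is which. P-values measure the spread between libraries, which the study's methods call independent experiments. Intervals of reads and shares cover counting error only.

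Named integrants were first the 5 with most reads. Of those called with at least 200 reads, the 5 largest rises and 2 largest falls of each knockdown comparison whose groups did not overlap were added, with the 2 largest in each direction of each other comparison. The 3 KAP1-bound integrants with a 5hmC value and most RNA reads were named last. The split of ORR1A0 by completeness, the ATTAAA search, the settings without non-coding RNA pieces and the subfamily sums without single libraries or integrants were chosen after seeing the data. Members and lists were chosen with earlier results of these data known.

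The replicate numbers were checked over genes. Deviations of same-numbered samples correlated by 0.371 to 0.533 between hairpins in WT and by 0.248 to 0.621 in DNMT TKO, but by -0.042 in TET TKO. Replicates 2 and 3 correlated across numbers too, by 0.3823 and 0.3925 in WT and by 0.3573 and 0.4878 in DNMT TKO. Replicate 1 correlated negatively with both in these genotypes. The correlation thus sets replicate 1 apart and does not follow the numbers, and no source used here says what a number marks.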

Additional observations from a re-analysis of the deposited data

Results flagged for a closer look

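The results here are those in which the knockdown effect of a mutant differed from that of WT by the interaction term of the fit. Among subfamily sums, ORR1A0 had a log2 difference of 0.80 in DNMT TKO and 0.76 in TET TKO. In TET TKO the difference was 0.40 for ORR1A1, 1.04 for ORR1A3, -0.31 for ORR1A4 and 0.37 for ORR1D1. The ORR1A3 value includes the pieces inside MERVL, whose reads are also counted for MERVL. Outside MERVL it was 0.43, and with library sizes from TE reads the whole ORR1A3 sum gave 0.88, under 2-fold. The median family differed by 0.07 in DNMT TKO and 0.19 in TET TKO. With library sizes from TE reads, those of ORR1A1 (adjusted p = 0.265, edgeR) and ORR1D1 (0.0846) no longer passed. Those of ORR1A1, ORR1A4 and ORR1D1 also did not pass with 5, 4 and 8 of the 16 libraries left out in turn. The ORR1A4 difference was -0.02 (adjusted p = 0.92, edgeR) without the integrant with most reads, at chr13:74689250-74690739. All of these use the same WT libraries, and the TET TKO values rest on 2 libraries per hairpin.

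Among single integrants in DNMT TKO, the ORR1A0 LTR at the start of Gm15514 on chromosome 7 differed by 6.37 and the ORR1A1 on chromosome 10 by -6.24. The complete ORR1A1 opposite to Haus8 on chromosome 8 differed by 3.93, and the ORR1A3-int piece on chromosome 5 by -3.49. In TET TKO the ORR1A1 on chromosome 10 differed by -5.81, the ORR1A1-int on chromosome 7 by 5.48, the ORR1A3-int piece on chromosome 2 by 5.79 and the ORR1D2 on chromosome 8 by -3.31. Where a group has no reads, as for the ORR1A0, the chromosome 10 ORR1A1, the ORR1A1-int and the chromosome 2 piece, the fitted value depends on the prior count and is no measure of size.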

How the results depend on the processing

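For sums and the ratio, a recomputed value was taken as the same where it kept its direction and side of the threshold. Counts of calls were the same within a set fold of the main count, and the KAP1 share and 5hmC change within an interval of the main value. Of the values recomputed for the main results, 203 were the same under a planned or added setting other than leaving out a library. Another 14 changed direction, 14 moved, 9 came to pass the threshold and 1 no longer passed it. With 1 library left out 376 were the same, 8 changed direction, 4 moved, 8 came to pass and 4 no longer passed. A group left with 1 library is assumed to vary like the others. Among subfamily sums and sums of parts of ORR1, 62 rises within a genotype passed and kept their call with each library left out. Of 20 differences of the knockdown effect that passed, 12 did so and 8 were lost with at least 1 library, in 46 of 320 refits, and of 17 differences without knockdown 5 and 12, in 57 of 272. The TET TKO difference of ORR1A4 was 0.10 without its 5 integrants with most reads, and that of ORR1C1 0.10 without its 5 and 0.049 without the integrant on the exon of Gm8909. ORR1 integrants called numbered 858 in WT, 756 in DNMT TKO and 948 in TET TKO on knockdown, 78 and 62 for the differences of the DNMT TKO and TET TKO effects, and 391 and 219 for these lines against WT without knockdown. DESeq2 called 520, 418, 557, 44, 28, 193 and 99 in the same order, a limit of 50 reads left 596 in TET TKO, limma-voom gave 150 and 101 for the differences, and no filter gave 49 and 35. With 1 library left out the counts ran from 671 to 873, 577 to 752, 723 to 954, 58 to 80, 35 to 67, 293 to 394 and 133 to 226. The count of TET TKO differences was 40 without WT shEmpty replicate 3, 36 without TET TKO shEmpty replicate 1 and 35 without replicate 2, and that of TET TKO without knockdown was 133 without TET TKO shEmpty replicate 1.

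The ORR1A sum turned on the rRNA integrant. Without the 5 integrants with most reads it changed by 0.49, 0.69 and 1.02 on knockdown, with differences of 0.20 and 0.53 and -0.053 for DNMT TKO without knockdown. Without non-coding RNA pieces the values were 0.48, 0.73, 0.91, 0.25, 0.44 and -0.064. DESeq2 gave 0.60 in DNMT TKO (adjusted p = 0.0263), and limma-voom 0.16 in TET TKO. With 1 library left out the sum ran from 0.41 to 0.47 in WT, 0.52 to 0.67 in DNMT TKO and -0.57 to 0.89 in TET TKO, its differences from 0.08 to 0.23 and -1.01 to 0.46, and its values without knockdown from -0.072 to 0.078 and 0.16 to 1.62. In TET TKO it was -0.57 (adjusted p = 0.000639, edgeR) without TET TKO shEmpty replicate 1, 0.89 (2.12e-05) without replicate 2 and 0.01 without TET TKO shKap1 replicate 2. With either TET TKO shEmpty library left out the WT and DNMT TKO changes passed the threshold. Without knockdown the DNMT TKO value was -0.072 without DNMT TKO shEmpty replicate 3, and the TET TKO value did not pass without any 1 of the WT shEmpty libraries or without TET TKO shEmpty replicate 2.

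For older ORR1, library sizes from TE reads gave a DNMT TKO difference of -0.066, and 0.18 and 0.27 for the lines without knockdown. Without same-strand exons the TET TKO difference was 0.27 (adjusted p = 0.0468, edgeR). With 1 library left out the differences ran from -0.019 to 0.079 and 0.083 to 0.28, and TET TKO without knockdown from 0.042 to 0.23. The TET TKO difference was 0.28 without TET TKO shEmpty replicate 2, and TET TKO without knockdown 0.23 without replicate 1. The change of the ORR1A to older ORR1 ratio was 0.19 without the 5 integrants with most reads, 0.20 without non-coding RNA pieces, 0.042 also without integrants inside MERVL and 0.032 also without those within 10 kb. It ran from -0.32 to 0.10 with 1 library left out, 0.10 being without TET TKO shEmpty replicate 2. A KAP1 overlap of 25% gave 0.487% of ORR1, and H3K4me3 scaling a 5hmC change of 0.20. The causes of these shifts were not tested.

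With a replicate block the counts of calls were 826, 723, 924, 74, 62, 371 and 195, the TET TKO change of the ORR1A sum was 0.028, and its value without knockdown was 1.02 (adjusted p = 0.0674). The block changed no other call on these results. Over TE integrants the correlation of same-numbered samples between hairpins was as low as -0.00311 in WT. Between WT and DNMT TKO it ran from 0.1148 to 0.3181 with shEmpty and from -0.04516 to 0.1425 with shKap1. The numbers were not taken as pairs in the main fit. In TET TKO 2 libraries per hairpin limit what differences can be seen.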

Other observations

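ORR1 copies hold few annotated transcript starts on their own strand, 54 in ORR1A and 93 in older ORR1. Of the 16 ORR1A among these with at least 16 reads, 3 were called higher and 3 lower on knockdown in WT, and 4 higher and 0 lower in each mutant, where 12.1%, 15.0% and 14.7% of all TE integrants were called higher in WT, DNMT TKO and TET TKO and 2.05%, 0.944% and 0.971% lower. The TET TKO counts for these ORR1A were 3 and 0 without TET TKO shEmpty replicate 2. Of 18 older ORR1 the calls were 2 and 0 in WT and in DNMT TKO, and 3 and 1 in TET TKO (1 and 0 without that library). The integrants that entered these counts passed the read limit, and no test was made on them.

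Some ORR1 lay wholly inside exons of 1 strand only. The 221 such integrants on the strand of the exon held 49912 reads over the 16 libraries, against 1166 on 378 opposite to it.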
